A study of Arabidopsis thaliana with 8 samples.

Results

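Abscisic acid (ABA) transporters were followed as a set of 5 genes, ABCG25 (AT1G71960), ABCG40 (AT1G15520), ABCG22 (AT5G06530), NPF4.6 (AT1G69850, also called AIT1) and DTX50 (AT5G52050). The rows of the count table were chosen by these gene codes, which picked out 5 of 36799 genes. No threshold on a measured value was used, but the genes were chosen with earlier results of these data known. The study asked how ENAP1 and ENAP2, a pair of related histone-binding proteins, affect the response of Arabidopsis thaliana to water loss. RNA was sequenced from whole seedlings of Col-0, the wild type, and enap1-1enap2, a mutant of both genes in the Col-0 background. The enap1-1 allele is a deletion made with CRISPR/Cas9, the enap2 allele carries T-DNA insertions in the first exon of ENAP2, and the mutant that was sequenced is a single line obtained by crossing. Seedlings were 10 days old and were held for 4 h with liquid ½ MS medium alone (Mock) or with medium that also held 25% PEG8000 (Dehydration), which lowers the water potential around the seedling. Each of the 4 groups had 2 libraries, labelled BR1 and BR2 and called replicates 1 and 2 here. The study calls them biological replicates, but no source used here says how they were grown, so the p-values measure only the spread between these libraries.

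ABA is the hormone that closes stomata and switches on protective genes when a plant loses water. Much of it is made in the vascular tissue and acts elsewhere, among other places in guard cells, so it has to cross plasma membranes on its way. ABCG25, a half-size ABC transporter, and DTX50, a MATE-type carrier, export ABA from cells. ABCG40, a full-size ABC transporter, brings ABA into cells, guard cells included. NPF4.6, a member of the nitrate and peptide transporter family that was first described as the nitrate transporter NRT1.2, also imports ABA. ABCG22 is a half-size ABC transporter that is needed for normal stomatal closure, and its cargo is less well defined.

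All 5 genes lie on chromosomes 1 and 5 of the TAIR10 genome. ABCG25 spans chr1:27082394-27088248, ABCG40 chr1:5331858-5338326, ABCG22 chr5:1989650-1994961 and NPF4.6 chr1:26296540-26300684, all on the minus strand, while DTX50 spans chr5:21138703-21140876 on the plus strand. Their exons cover 2267, 4641, 3324, 2440 and 2174 bases in the same order. None of them overlapped another annotated gene, which matters because the counts were made without regard to strand. Exon stretches of 31 bases occurred again in the nuclear genome only for ABCG22, where 2 of 3047 did.

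The 300 bases before the annotated start of 3 of the genes are shown, picked with their behaviour in the mutant known. The windows of ABCG25, ABCG40 and DTX50 held 4, 1 and 0 matches of ACGTG, the core of the ABA-responsive element. The sequences were read from RefSeq's TAIR10.1 genome, in which 36449 of 36632 compared genes have the same start and end as in the count table. They run 5′ to 3′ on the strand of the gene, and capitals mark ACGTG on either strand, including its palindromic form CACGTG, the G-box. The ABCG25 window is chr1:27088249-27088548 on the minus strand, the ABCG40 window chr1:5338327-5338626 on the minus strand and the DTX50 window chr5:21138403-21138702 on the plus strand.
ABCG25: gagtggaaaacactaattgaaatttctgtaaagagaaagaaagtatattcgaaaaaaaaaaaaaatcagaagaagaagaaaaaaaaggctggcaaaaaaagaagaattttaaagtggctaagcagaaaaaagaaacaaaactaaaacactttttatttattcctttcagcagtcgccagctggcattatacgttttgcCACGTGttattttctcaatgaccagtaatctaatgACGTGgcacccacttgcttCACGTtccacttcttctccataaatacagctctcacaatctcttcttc
ABCG40: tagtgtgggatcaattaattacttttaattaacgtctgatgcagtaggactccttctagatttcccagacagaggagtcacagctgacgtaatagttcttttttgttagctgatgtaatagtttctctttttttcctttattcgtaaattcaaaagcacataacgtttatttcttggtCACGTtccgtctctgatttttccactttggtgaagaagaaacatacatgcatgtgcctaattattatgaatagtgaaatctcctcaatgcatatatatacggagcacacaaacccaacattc
DTX50: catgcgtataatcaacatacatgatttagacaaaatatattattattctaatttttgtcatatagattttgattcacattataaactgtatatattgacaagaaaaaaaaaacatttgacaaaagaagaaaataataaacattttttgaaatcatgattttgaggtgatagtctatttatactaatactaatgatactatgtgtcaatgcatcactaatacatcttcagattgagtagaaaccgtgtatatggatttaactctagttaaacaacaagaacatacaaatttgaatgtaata

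The ABCG25 window held 4 matches of ACGTG, 2 of which are the overlapping strands of 1 CACGTG. Such a number of matches was found in 1.56% of the 27443 windows of protein-coding genes searched in the same way, and at least 1 match in 25.6%. The ABCG40 window held 1 match, and those of ABCG22, NPF4.6 and DTX50 held 0. CCGAC, the core of the dehydration-responsive element, was in none of the 5 windows and in 13.9% of all windows. AACNG, a core bound by MYB factors, occurred 3 times in the ABCG22 window and 2 times in that of DTX50, against 76% of all windows with at least 1 match. A match of letters describes the sequence and does not show a bound site, and a link between these matches and the behaviour in the mutant was not tested.

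The libraries held between 24007691 and 48279415 counts on genes, so that 3 counts, taken as the floor of detection, equal 0.0621 to 0.125 CPM, the usual measure of counts relative to the size of the library. Levels are given as CPM scaled with TMM factors, and the 5 genes had between 202 and 6197 counts in every library, far above that floor. Replicates correlated at r between 0.992 and 0.996 over 21614 genes, and the 2 Col-0 Mock libraries were the farthest apart, with 113 genes that differed 2-fold or more, against 1 to 39 in the other groups. The mutated genes were lower in enap1-1enap2 Mock than in Col-0 Mock. ENAP1 had 4.46 ± 0.924 CPM (mean ± SD, n = 2) against 15.6 ± 2.42 CPM (adjusted p = 1.0e-05 in the edgeR quasi-likelihood test) and ENAP2 had 3.30 CPM against 8.54 CPM (log2 difference −1.37, SE 0.20, adjusted p = 7.5e-04), and under dehydration both were also lower in the mutant (11.9 against 23.4 CPM, adjusted p = 3.7e-04, and 4.49 against 7.96 CPM, adjusted p = 0.011), so that reads from both genes were still counted in it. The ABA- and drought-responsive genes RD29A, RD29B and RAB18 rose under dehydration in both genotypes. Markers of guard cells (7 of 7), vascular tissue (7 of 7), mesophyll (4 of 4) and roots (6 of 6) all had enough counts to be tested, so that none of these defining markers of a whole seedling was absent. In such bulk samples, fewer cells of a type and less RNA per cell cannot be told apart.

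In Col-0, dehydration raised the transcripts of all 5 transporters. The levels in the 8 libraries are shown in the plot of the transporters' CPM. A gene is said to rise or fall where its Benjamini-Hochberg adjusted p in edgeR was under 0.05, which held upwards for 5 of 5 transporters and for 29.7% of all 21614 genes tested. Downwards it held for 0 of 5 transporters and for 30.0% of all genes. It is called induced or repressed where the unadjusted p was also under 0.01 and the log2 fold change beyond 1 in size, and this held upwards for 4 of 5 transporters (all but NPF4.6) and for 10.0% of all genes. The median log2 fold change was 2.54 over the transporters and −0.03 over all genes.

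**Figure D1:**
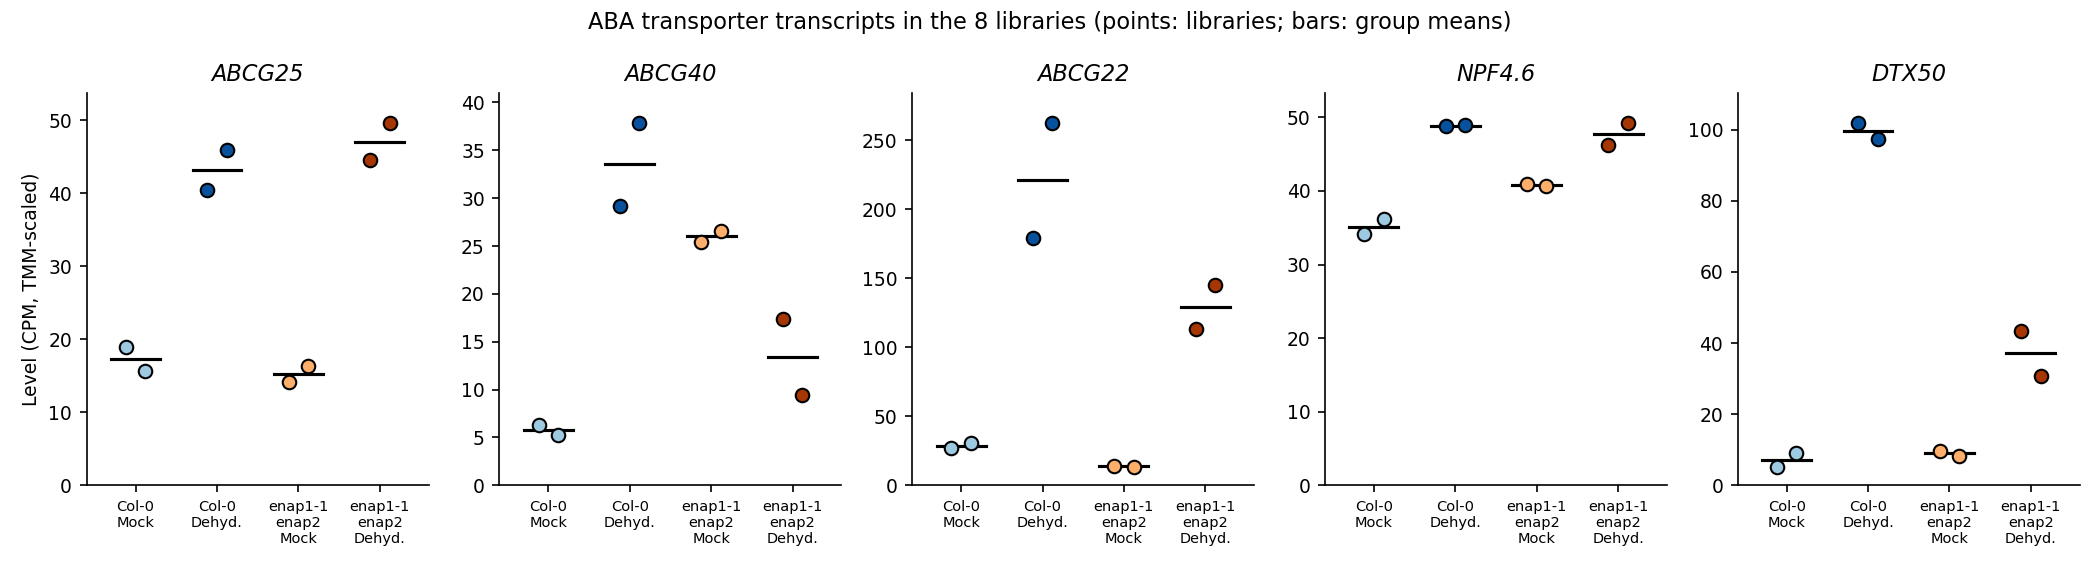
Level of each ABA transporter in CPM with TMM scaling (y axes start at 0 and differ between panels) in the 4 groups, with 1 point per library and a bar at the mean of each group. ABCG40 is lowest in the 2 Col-0 Mock libraries (5.31 and 6.32 CPM), and DTX50 reaches 97.5 and 102 CPM in Col-0 Dehydration but 30.8 and 43.5 CPM in enap1-1enap2 Dehydration.

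The exporter DTX50 had the largest rise of the 5. It stood at 5.27 and 9.16 CPM in Col-0 Mock and at 102 and 97.5 CPM in Col-0 Dehydration. The lowest dehydrated library was thus far above the highest mock library, and in this comparison the 2 groups did not overlap for 78.9% of all genes. The rise was 13.7-fold, a log2 fold change of 3.77 (SE 0.20, n = 2 against 2, adjusted p = 2.4e-10 in edgeR), and 99.1% of all genes had a lower log2 fold change.

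The other exporter, ABCG25, started higher and changed less. It had 18.9 and 15.6 CPM in Col-0 Mock, and 40.5 and 46.0 CPM in Col-0 Dehydration. Again the 2 groups did not overlap, as for 78.9% of all genes, and the rise was 2.52-fold, with a log2 fold change of 1.33 (SE 0.12, adjusted p = 1.0e-07 in edgeR).

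ABCG22, the transporter tied to stomatal closure, had 26.9 and 30.5 CPM in Col-0 Mock and 179 and 263 CPM in Col-0 Dehydration. Its replicates were the farthest apart of the 5 genes under dehydration, but both lay well above the mock libraries. The log2 fold change was 2.94 (SE 0.16, adjusted p = 2.8e-10 in edgeR), or 7.69-fold.

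Of the importers, ABCG40 rose from 6.32 and 5.31 CPM in Col-0 Mock to 29.2 and 37.9 CPM in Col-0 Dehydration. The groups did not overlap, and the rise was 5.80-fold, with a log2 fold change of 2.54 (SE 0.21, adjusted p = 6.3e-08 in edgeR).

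NPF4.6 moved least. It had 34.1 and 36.2 CPM in Col-0 Mock, and 48.8 and 48.9 CPM in Col-0 Dehydration. These groups did not overlap either, and the log2 fold change was 0.48 (SE 0.08, adjusted p = 1.7e-04 in edgeR), a rise of 1.39-fold that is short of the fold needed to be called induced. With upper quartile scaling or library size alone it was 0.29, under settings that also moved the median of all genes to −0.22 and −0.21.

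In enap1-1enap2, dehydration raised 4 of the 5 transporters and lowered ABCG40. Of all genes, 32.2% rose and 32.4% fell. Called induced were ABCG25, ABCG22 and DTX50, 3 of 5 transporters against 12.6% of all genes, and ABCG40 fell without reaching the fold to be called repressed, which 14.1% of all genes did. The median log2 fold change was 1.63 over the transporters and −0.01 over all genes.

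ABCG40 had 25.4 and 26.6 CPM in enap1-1enap2 Mock, and 17.4 and 9.39 CPM in enap1-1enap2 Dehydration. Both mutant mock libraries lay just below the dehydrated Col-0 libraries, and the dehydrated mutant libraries lay lower still, though well apart from each other. The fall was 1.92-fold, with a log2 fold change of −0.94 (SE 0.20, adjusted p = 7.0e-04 in edgeR). Its size rests in part on the dehydrated replicates, being −1.47 without enap1-1enap2 Dehydration replicate 1 and −0.58 without replicate 2, and it passed the test both times.

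DTX50 had 9.69 and 8.24 CPM in enap1-1enap2 Mock, and 43.5 and 30.8 CPM in enap1-1enap2 Dehydration. The dehydrated libraries were above the mock ones (the 2 groups did not overlap for 84.4% of all genes), but neither came near the dehydrated Col-0 libraries. The rise was 4.13-fold, with a log2 fold change of 2.05 (SE 0.19, adjusted p = 1.8e-07 in edgeR).

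ABCG25 rose from 14.2 and 16.3 CPM to 44.5 and 49.7 CPM in the mutant, a log2 fold change of 1.63 (SE 0.12, adjusted p = 7.9e-09 in edgeR). ABCG22 rose from 13.9 and 13.5 CPM to 113 and 145 CPM, a log2 fold change of 3.23 (SE 0.17, adjusted p = 1.3e-10 in edgeR). For both genes the mutant's response was close in size to the one in Col-0, as the plot of the responses shows.

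NPF4.6 had 41.0 and 40.7 CPM in enap1-1enap2 Mock, and 46.2 and 49.3 CPM in enap1-1enap2 Dehydration. The log2 fold change was 0.22 (SE 0.08, adjusted p = 0.029 in edgeR), and this call is not firm. It was lost with DESeq2 (0.21, adjusted p = 0.055), without a count filter (adjusted p = 0.063), with 2 other scalings (0.06 each), and without enap1-1enap2 Mock replicate 1 (0.23), Mock replicate 2 (0.21) or Dehydration replicate 2 (0.18).

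**Figure D2:**
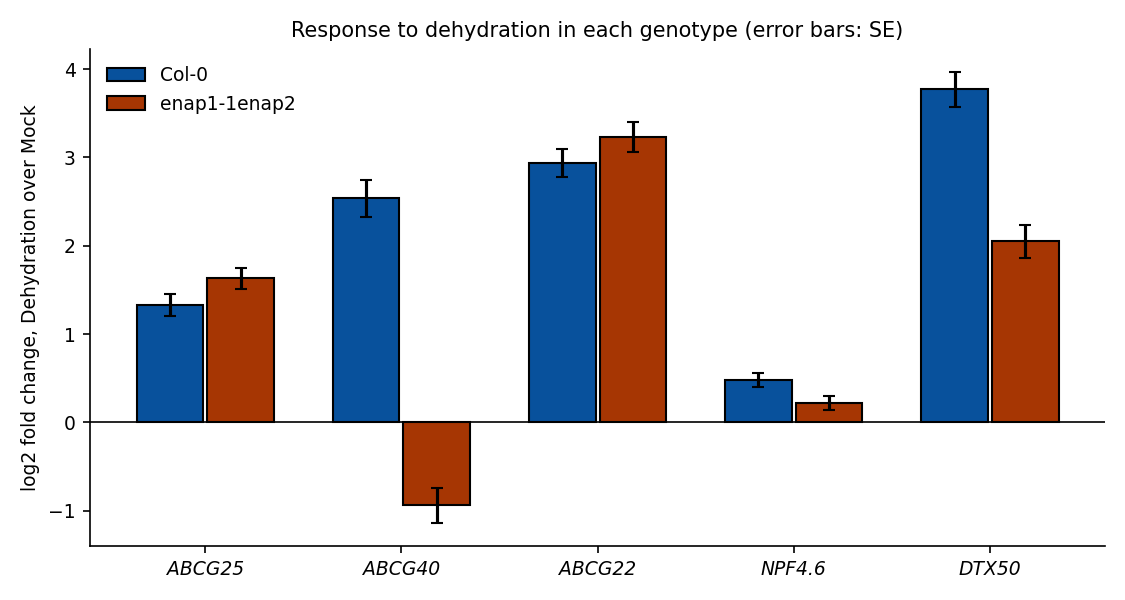
Response to dehydration of each ABA transporter, as the log2 fold change of Dehydration over Mock in Col-0 (blue) and enap1-1enap2 (brown), with error bars of 1 SE and 2 libraries per group. ABCG40 goes from 2.54 to −0.94, DTX50 from 3.77 to 2.05, and the bars of ABCG25 and ABCG22 are a little taller in the mutant (1.63 and 3.23) than in Col-0 (1.33 and 2.94), differences that did not pass the test.

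Whether the responses differed between the genotypes was tested as an interaction, the log2 response in enap1-1enap2 minus that in Col-0. It was negative and passed the test for ABCG40 and DTX50, 2 of 5 transporters, while 8.76% of all genes passed in this direction. In the other direction 0 of 5 passed, against 8.07% of all genes.

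For ABCG40 the difference of the responses was −3.48 (SE 0.29, adjusted p = 4.6e-06 in edgeR), an 11.1-fold smaller ratio of Dehydration to Mock in the mutant, and 0.486% of all genes had a lower value. It lay between −4.00 and −3.11 when each library was left out in turn. For DTX50 it was −1.73 (SE 0.27, adjusted p = 5.7e-04 in edgeR), or 3.31-fold, and it lay between −2.20 and −1.40 when each library was left out. Both differences passed the test in each of these fits.

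For the other 3 genes no difference of the responses was detected. It was 0.30 for ABCG25 (95% interval −0.05 to 0.65, adjusted p = 0.24 in edgeR), so that a mutant response up to 0.65 larger on the log2 scale is within the error. For NPF4.6 it was −0.25 (95% interval −0.51 to 0.00, adjusted p = 0.17 in edgeR). ABCG22 had 0.29 (95% interval −0.17 to 0.75, adjusted p = 0.40 in edgeR), which became 0.59 and passed the test (adjusted p = 0.048) without Col-0 Dehydration replicate 2, its highest library.

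The genotypes already differed under mock. Of the 5 transporters ABCG40 was higher and ABCG22 lower in enap1-1enap2 Mock than in Col-0 Mock, 1 in each direction, while 3.47% of all genes were higher and 3.70% lower. Both also met the stricter thresholds, as 0.389% of all genes did upwards and 0.953% downwards. For ABCG22 this stricter call was lost without Col-0 Mock replicate 2 (−0.98). These differences and those of the responses share the mock libraries, so they are not separate pieces of evidence.

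ABCG40 in the mutant, at 25.4 and 26.6 CPM, was 4.48-fold above Col-0 Mock, at 6.32 and 5.31 CPM. The log2 difference was 2.16 (SE 0.21, adjusted p = 3.2e-05 in edgeR), and in the order of all 21614 genes from the highest log2 difference down it took place 79. ABCG22 in the mutant, at 13.9 and 13.5 CPM, was 2.10-fold below Col-0 Mock, at 26.9 and 30.5 CPM, with a log2 difference of −1.07 (SE 0.16, adjusted p = 0.0011 in edgeR). In neither gene did the libraries of the 2 genotypes overlap, which was also so for 51.4% of all genes.

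The remaining 3 did not pass the test under mock. ABCG25 differed by −0.18 (95% interval −0.43 to 0.08, adjusted p = 0.43 in edgeR) and NPF4.6 by 0.22 (95% interval 0.04 to 0.40, adjusted p = 0.14). For DTX50 the difference was 0.30 (95% interval −0.14 to 0.75, adjusted p = 0.44), and it depends on which of the Col-0 Mock libraries is used. It was −0.02 without Col-0 Mock replicate 1 and 0.77, past the test (adjusted p = 0.025), without Col-0 Mock replicate 2.

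**Figure D3:**
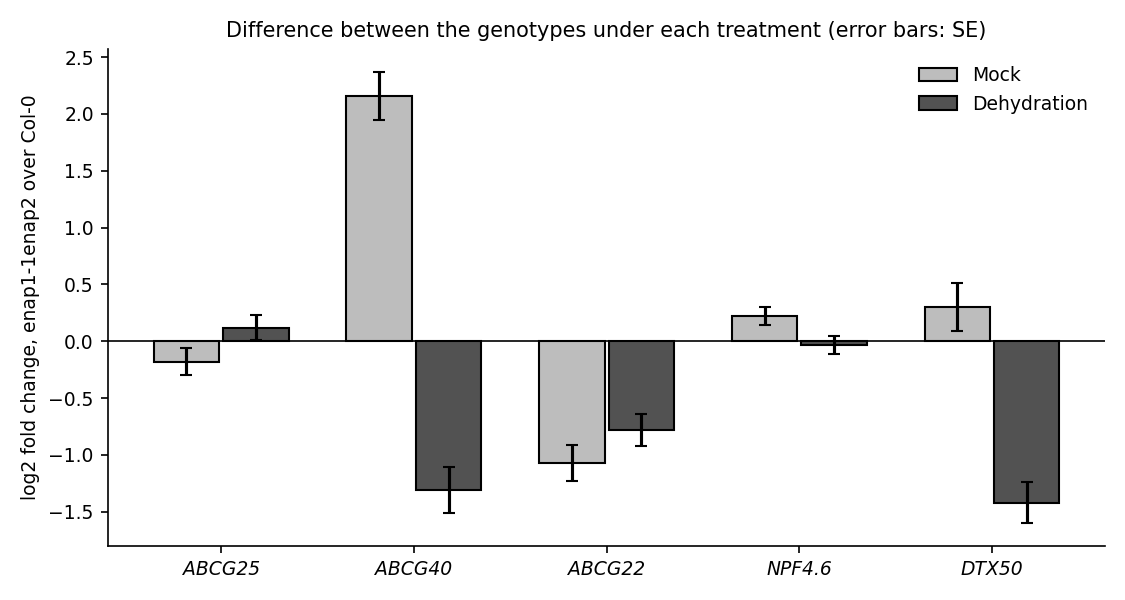
Difference between the genotypes for each ABA transporter, as the log2 fold change of enap1-1enap2 over Col-0 under Mock (light grey) and Dehydration (dark grey), with error bars of 1 SE and 2 libraries per group. ABCG40 is above 0 under Mock (2.16) and below it under Dehydration (−1.31), ABCG22 is below 0 under both (−1.07 and −0.78), and DTX50 is below 0 only under Dehydration (−1.42).

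Under dehydration, 3 of the 5 transporters were lower in enap1-1enap2 than in Col-0, which 8.14% of all genes were, and 0 of 5 were higher, against 6.56% of all genes. ABCG40 and DTX50 also met the stricter thresholds, as 1.40% of all genes did in this direction. For ABCG40 this stricter call was lost without enap1-1enap2 Dehydration replicate 2 (−0.95).

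DTX50, at 43.5 and 30.8 CPM in the mutant and 102 and 97.5 CPM in Col-0, was 2.68-fold lower (log2 difference −1.42, SE 0.18, adjusted p = 7.9e-05 in edgeR). ABCG40, at 17.4 and 9.39 CPM against 29.2 and 37.9 CPM, was 2.48-fold lower (log2 difference −1.31, SE 0.20, adjusted p = 5.0e-04 in edgeR). For ABCG22, at 113 and 145 CPM against 179 and 263 CPM, the difference was 1.72-fold (log2 difference −0.78, SE 0.14, adjusted p = 0.0021 in edgeR). It was −0.48 without Col-0 Dehydration replicate 2 and still passed the test. ABCG22 was therefore lower in the mutant under both treatments, with a response of similar size.

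ABCG25 and NPF4.6 were close in the dehydrated groups. The log2 difference was 0.12 for ABCG25 (95% interval −0.12 to 0.36, adjusted p = 0.52 in edgeR) and −0.03 for NPF4.6 (95% interval −0.21 to 0.14, adjusted p = 0.83). These intervals leave room only for differences smaller than 0.40 on the log2 scale.

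Set side by side per kb of exon, the transporters changed places between the groups. In Col-0 Mock NPF4.6 was the most abundant, at 14.4 CPM per kb, and ABCG40 the least, at 1.25 CPM per kb. ABCG22 (8.64 CPM per kb) and ABCG25 (7.60 CPM per kb) came next to each other with overlapping libraries, followed by DTX50 (3.32 CPM per kb). In Col-0 Dehydration ABCG22 (66.5 CPM per kb) and DTX50 (46.0 CPM per kb) were on top, ahead of NPF4.6 (20.0 CPM per kb) and ABCG25 (19.1 CPM per kb), whose libraries overlapped, and ABCG40 (7.23 CPM per kb) was still the lowest.

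In enap1-1enap2 Mock NPF4.6 again led, at 16.7 CPM per kb, but ABCG40 now took place 3, at 5.60 CPM per kb, behind ABCG25 at 6.73 CPM per kb. DTX50 (4.13 CPM per kb) and ABCG22 (4.12 CPM per kb) overlapped at the bottom. In enap1-1enap2 Dehydration ABCG22 led at 38.8 CPM per kb, and ABCG25 (20.8 CPM per kb) and NPF4.6 (19.6 CPM per kb) overlapped behind it. NPF4.6 also overlapped with DTX50, which at 17.1 CPM per kb took place 4 and not 2 as in dehydrated Col-0. ABCG40 was last again, at 2.88 CPM per kb.

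**Figure D4:**
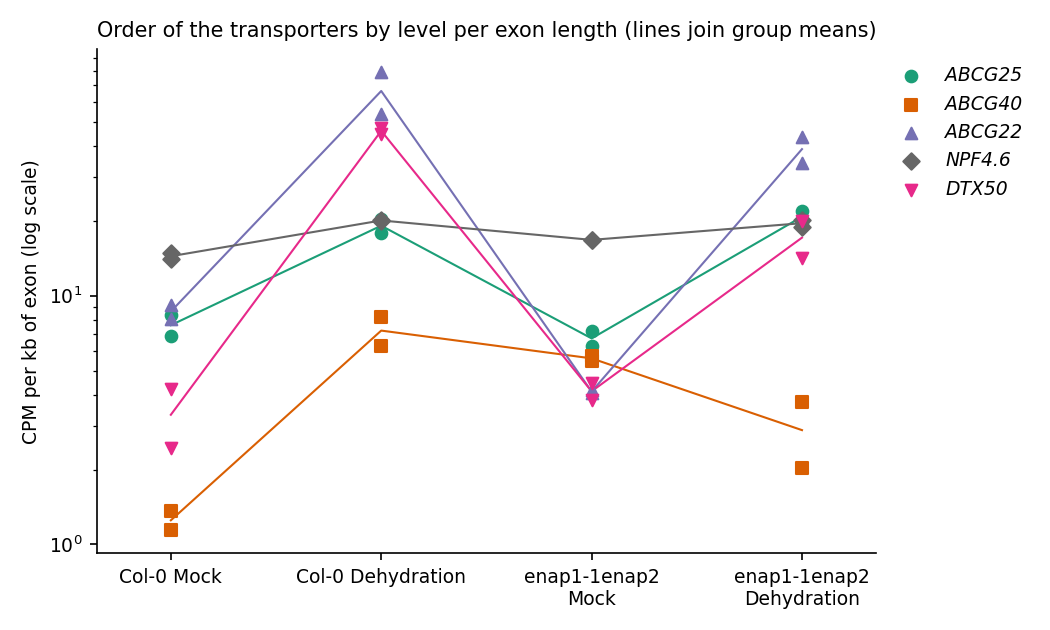
Level of each ABA transporter per exon length (CPM per kb of exon, log scale) in the 4 groups, with 1 point per library and lines that join the group means. DTX50 drops from 46.0 CPM per kb in Col-0 Dehydration to 17.1 in enap1-1enap2 Dehydration, and ABCG40 is above ABCG22 and DTX50 in enap1-1enap2 Mock only.

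Guard cells and vascular tissue are the places where these transporters are known to act, so marker levels of both are given beside the results. The 7 guard cell markers summed to 73.3 to 73.6 CPM in Col-0 Mock, 57.5 to 60.7 CPM in Col-0 Dehydration, 67.6 to 68.0 CPM in enap1-1enap2 Mock and 44.3 to 47.2 CPM in enap1-1enap2 Dehydration. Under mock 0 of 7 differed between the genotypes (3.47% of all genes were higher and 3.70% lower). In its response 1 of 7 differed, FAMA, a regulator of guard cell formation (−0.55, adjusted p = 0.045 in edgeR), beside 8.76% of all genes in that direction. The 7 vascular markers, led by the sucrose carrier SUC2, summed to 299.6 to 359 CPM in Col-0 Mock, 483 to 524 CPM in Col-0 Dehydration, 325 to 328 CPM in enap1-1enap2 Mock and 581 to 584 CPM in enap1-1enap2 Dehydration. The rise of this sum with dehydration was not shared by all 7 markers. SUC2 had a mean of 115 CPM in Col-0 Mock and 326 CPM in Col-0 Dehydration. Of the 7, 2 rose and 2 fell in Col-0 (29.7% and 30.0% of all genes). In the mutant 3 rose and 2 fell (32.2% and 32.4% of all genes). In this list 0 of 7 differed between the genotypes under mock. In their response 0 of 7 differed, beside 8.07% of all genes upwards and 8.76% downwards. Between the dehydrated groups 1 of 7 guard cell markers was lower in the mutant (FAMA, −0.74, adjusted p = 0.0014 in edgeR), beside 8.14% of all genes. Of the vascular markers 1 of 7 was higher (HB8, a factor of vascular cells, 0.59, adjusted p = 0.0061), beside 6.56% of all genes. With dehydration 5 of the 7 guard cell markers fell and 2 rose in Col-0 (30.0% and 29.7% of all genes), where all 5 transporters rose. Their sum was lowest in the dehydrated mutant, in which ABCG40 and DTX50 were lower than in dehydrated Col-0. The summed level of the 4 mesophyll markers moved the same way, at 12559.8 to 13861 CPM there against 18365 to 18774 CPM in dehydrated Col-0. Of these, 3 of 4 were lower (8.14% of all genes), LHCB1.1 (−1.24, adjusted p = 3.8e-06 in edgeR), LHCB1.3 (−0.58, adjusted p = 0.0051) and RBCS1A (−0.44, adjusted p = 0.017). CA1 leaned the other way and did not pass the test (0.29, adjusted p = 0.052). The part of these markers in the lower ABCG40 and DTX50 was not tested.

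Other genes linked to ABA transport in the literature rose or fell in Col-0 about as often as other genes. Of 16 such genes 11 had enough counts to be tested. In Col-0 4 rose and 3 fell, beside 29.7% and 30.0% of all genes, with a median log2 fold change of 0.30. By the stricter thresholds 3 of 11 were called induced, beside 10.0% of all genes, and 1 was called repressed. NPF3.1, a carrier of gibberellin and ABA, rose from a mean of 26.4 CPM to 115 CPM (adjusted p = 2.1e-09 in edgeR), NPF5.2 rose by 1.68 on the log2 scale (adjusted p = 1.8e-05) and NPF2.13 by 1.52 (adjusted p = 1.3e-08). AT2G40460, of the same family, fell by 3.12 (adjusted p = 4.7e-11) and ABCG18 by 0.90 (adjusted p = 5.1e-05).

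In the mutant 2 of these 11 rose and 4 fell (32.2% and 32.4% of all genes). Under mock 0 of 11 differed between the genotypes, beside 3.47% of all genes higher and 3.70% lower. The responses differed for 3 of 11, all lower in the mutant, as for 8.76% of all genes in that direction, and the median difference was −0.52 against 0.01 over all genes. NPF5.2, which had 7.69 ± 1.75 CPM (mean ± SD) in Col-0 Dehydration and 3.82 ± 0.523 CPM in enap1-1enap2 Dehydration, differed by −1.66 (adjusted p = 0.0035 in edgeR). ABCC1, a vacuolar ABC transporter of conjugates, differed by −0.55 (adjusted p = 0.0055), and NPF2.13 by −0.52 (adjusted p = 0.032).

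The family of ABCG40, the full-size ABCG transporters, gave 14 other members, all of them tested. In Col-0 3 rose and 1 fell (29.7% and 30.0% of all genes), and 0 met the thresholds for induction that ABCG40 met, beside 10.0% of all genes. ABCG43 (log2 fold change 1.45, adjusted p = 0.026 in edgeR) and ABCG32, a transporter of cutin precursors, (0.60, adjusted p = 5.9e-06) rose most, and ABCG30 fell (−0.86, adjusted p = 3.2e-04). In the mutant 1 rose and 6 fell (32.2% and 32.4% of all genes).

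Under mock 3 of these 14 were higher in the mutant and 0 lower, beside 3.47% and 3.70% of all genes. The response was lower in the mutant for 5 of 14 and higher for 0, beside 8.76% and 8.07% of all genes. The median difference of the responses was −0.56. The 5 were ABCG39 (−1.81, adjusted p = 0.036 in edgeR), ABCG36 (−1.18, adjusted p = 4.8e-05), ABCG35 (−0.99, adjusted p = 0.0043), ABCG32 (−0.58, adjusted p = 0.0022) and ABCG34 (−0.55, adjusted p = 0.020). ABCG36, also known as PEN3 and PDR8 and needed for defence against fungi, was the most abundant of them, and its level was 328 ± 9.67 CPM (mean ± SD, n = 2) in Col-0 Mock and 283 ± 14.2 CPM after dehydration, against 473 ± 5.54 and 180.1 ± 22.4 CPM in the mutant. None of the 14 had a difference as large as that of ABCG40.

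The relatives of ABCG25 and ABCG22 were 26 other half-size ABCG genes, of which 21 were tested. In Col-0 8 rose and 6 fell (29.7% and 30.0% of all genes), with a median log2 fold change of 0.17. Called induced in Col-0 were 7 of 21, beside 10.0% of all genes, and 3 were called repressed. In the mutant 8 of 21 were called induced, beside 12.6% of all genes, and 3 were called repressed, beside 14.1%. ABCG1, which has a role in suberin, rose by 2.78 (adjusted p = 1.8e-12 in edgeR) and ABCG16 by 1.84 (adjusted p = 5.7e-07). ABCG14, a cytokinin transporter, fell by 1.70 (adjusted p = 3.4e-08) and ABCG23 by 1.17 (adjusted p = 7.5e-04).

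The responses of these half-size genes differed upwards for 3 and downwards for 3 of 21 (8.07% and 8.76% of all genes), with a median of −0.02. Those with a larger response in the mutant were ABCG27 (1.48, adjusted p = 0.011 in edgeR), ABCG6 (1.03, adjusted p = 0.0046) and ABCG16 (0.97, adjusted p = 0.024). Those with a negative difference were ABCG19 (−1.11, adjusted p = 5.0e-04), ABCG14 (−0.63, adjusted p = 0.033) and ABCG5 (−0.59, adjusted p = 0.016). ABCG19 rose in Col-0 only (1.04 against −0.07 in the mutant). ABCG14 fell more in the mutant (−2.33 against −1.70), and ABCG5 fell in the mutant only (−0.42 against 0.17 in Col-0).

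The close relatives of NPF4.6 and DTX50 had few rises. Of the other 6 genes of the NPF4 group 4 were tested. In Col-0 0 rose and 3 fell (29.7% and 30.0% of all genes), among them NPF4.4 (−2.58, adjusted p = 3.1e-05 in edgeR). In their response 0 differed (8.07% of all genes upwards and 8.76% downwards). AT5G62730 of this group had at most 3 counts in each Col-0 Dehydration library, and no fold is given for it. Of 8 relatives of DTX50 in the MATE family 6 were tested, and 1 rose and 2 fell in Col-0 (29.7% and 30.0% of all genes). ZF14 (AT1G58340) rose by 2.81 (adjusted p = 5.0e-12 in edgeR), ADS1 (AT4G29140) fell from 20.7 CPM to 3.93 CPM (adjusted p = 9.2e-10) and AT4G22790 fell by 1.43 (adjusted p = 0.0015). ADS1 also fell more in the mutant (−3.36 against −2.40 in Col-0), and its responses differed by −0.96 (adjusted p = 0.0055). ZF14 did not pass the interaction test (−0.06, adjusted p = 0.85). Its level was lower in the mutant under mock (−0.40, adjusted p = 0.043 in edgeR). Under dehydration it was also lower, with 47.1 CPM in the mutant and 64.8 CPM in Col-0 (−0.46, adjusted p = 0.0044).

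Genes that set the supply of ABA rose in part in both genotypes. Of 17 genes of ABA synthesis, breakdown and release, 15 were tested, and 7 rose and 2 fell in Col-0 (29.7% and 30.0% of all genes). In the mutant 10 rose and 2 fell (32.2% and 32.4% of all genes). Their responses differed upwards for 4 and downwards for 1 (8.07% and 8.76% of all genes), with a median difference of 0.51. NCED3, the main enzyme of ABA synthesis under water loss, stood at 14.3 ± 0.368 and 317 ± 6.29 CPM without and with dehydration in Col-0, against 6.66 ± 0.564 and 441 ± 40.4 CPM in the mutant, and its response differed by 1.56 (adjusted p = 8.2e-06 in edgeR).

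CYP707A1, which breaks ABA down, differed in its response by 1.36 (adjusted p = 2.2e-04 in edgeR), NCED9 by 2.30 (adjusted p = 0.038) and ABA4 by 0.51 (adjusted p = 0.044). NCED9 was close to the floor in enap1-1enap2 Mock (0.165 ± 0.125 CPM, mean ± SD) and had at most 66 counts in any library, so the size of its difference is uncertain. UGT71C5, which couples ABA to glucose, was the one with a negative difference (−0.49, adjusted p = 0.024). It fell in the mutant (−0.40) and did not pass the test in Col-0 (0.09). CYP707A3, with log2 fold changes of 3.48 in Col-0 (adjusted p = 3.9e-12 in edgeR) and 4.00 in the mutant (adjusted p = 1.2e-12), did not pass (0.52, adjusted p = 0.075). BG1, a glucosidase that releases ABA from its conjugate, fell by 0.70 in Col-0 (adjusted p = 0.0017). The ABA-responsive genes RAB18 (difference 2.51, adjusted p = 1.9e-06) and RD29B (4.45, adjusted p = 0.0025) also had a larger response in the mutant, and for RD29A the difference was 0.64 (adjusted p = 0.055). The 2 Col-0 Mock libraries lay far apart for RD29B (24.0 ± 27.2 CPM, mean ± SD), and its genotypes differed under mock (−3.50, adjusted p = 0.0068 in edgeR) but did not pass under dehydration (0.95, adjusted p = 0.22), so the size of its response difference rests on those libraries.

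**Figure D5:**
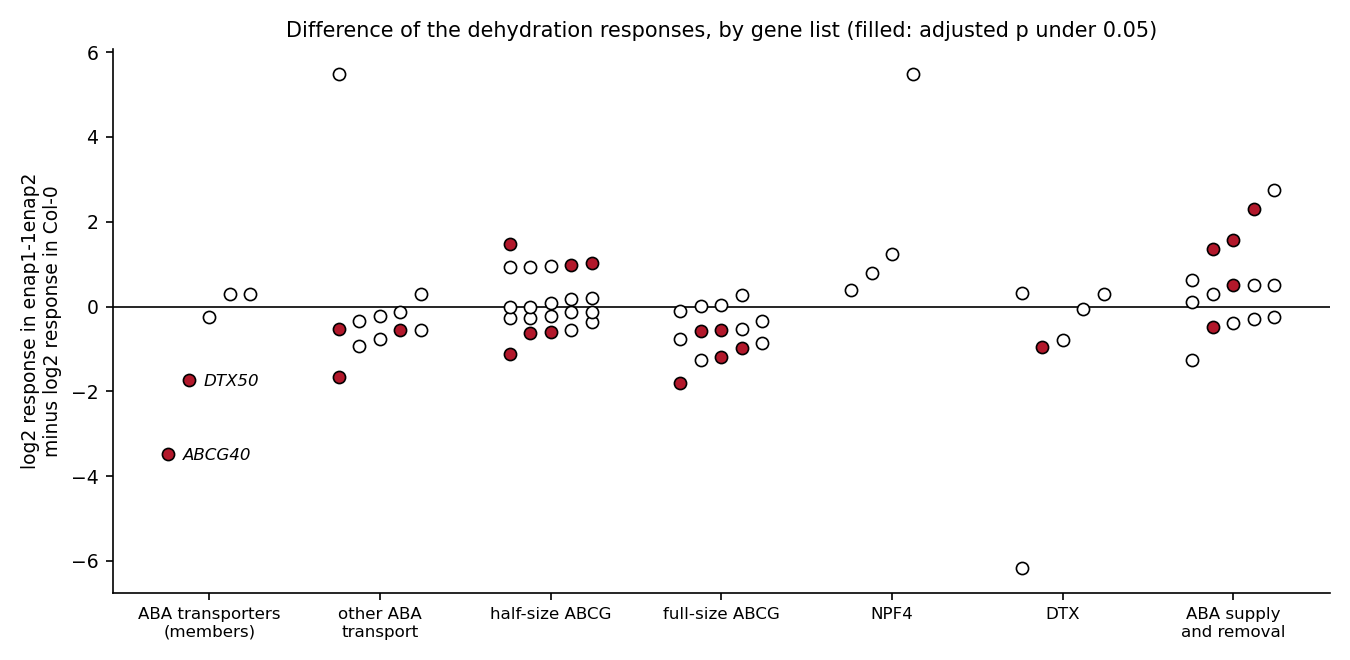
Difference of the dehydration responses (log2 response in enap1-1enap2 minus that in Col-0) for each tested gene of 7 lists, with genes at an adjusted p under 0.05 filled. ABCG40 (−3.48) and DTX50 (−1.73) are among the lowest filled points, the 5 filled full-size ABCG genes are all below 0, 4 of the 5 filled genes of ABA supply and removal are above 0, and the open points beyond 5 and −6 are genes with hardly any counts in at least 1 group.

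The genes with the pattern most like each transporter were sought among the 15441 genes whose mean level was 5 CPM or more, by the root mean square difference in log2(CPM + 1) over the 8 libraries after centring. For DTX50 the nearest was JRG21 (AT3G55970), at a distance of 0.11, which averaged 2.71 CPM under mock and 40.3 CPM under dehydration in Col-0, and 3.39 and 17.4 CPM in the mutant. It was followed by AT5G16960 (0.15) and AT2G36630 (0.18). For ABCG25 the nearest were ATC (AT2G27550, 0.056), AT2G44970 (0.072) and AGL16 (AT3G57230, 0.083), and for NPF4.6 they were AT5G23490 (0.026), AT5G41770 (0.036) and AT1G48950 (0.041).

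The nearest to ABCG22 were AT1G30250 (0.21), AT5G47330 (0.23) and HVA22D (AT4G24960, 0.29), an ABA-induced gene with 67.1 CPM (Mock) and 406 CPM (Dehydration) in Col-0 and 43.6 and 353 CPM in the mutant. ABCG40 had no close match. Its nearest were AT2G38240 (0.45), UGT85A1 (AT1G22400, 0.47) and AT5G40450 (0.50), so even the closest of 15441 genes was farther from it than the third match of every other transporter. AT2G38240 rose in Col-0 from 5.16 to 50.5 CPM, and had 16.7 CPM in enap1-1enap2 Mock.

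The genes next to the transporters were looked at because reads can run on from one gene to the next. ECB2 (AT1G15510), 146 bases from the 3′ end of ABCG40, fell in Col-0 (−1.15, adjusted p = 9.1e-07 in edgeR) and fell in the mutant (−2.13, adjusted p = 7.3e-10), did not pass the test between the genotypes under mock (0.20, adjusted p = 0.33), and was lower in the mutant under dehydration (−0.78, adjusted p = 0.0012). Its difference of the responses was −0.98 (adjusted p = 0.0016 in edgeR), of the same sign as that of ABCG40, and a part of ECB2 in the values of ABCG40 was not tested. RS41 (AT5G52040), 4993 bases from the start of DTX50, had a difference of the responses of −0.28 (adjusted p = 0.13 in edgeR). AT1G71950, 752 bases from the 3′ end of ABCG25, rose, as ABCG25 did, in Col-0 (1.21, adjusted p = 1.4e-08 in edgeR) and in the mutant (1.72, adjusted p = 1.9e-10). Unlike ABCG25 it also passed the test between the genotypes under dehydration (0.27, adjusted p = 0.047) and the interaction test (0.51, adjusted p = 0.012). On the other side of DTX50, AT5G00650, 2071 bases away, fell in Col-0 (−2.13, adjusted p = 0.018 in edgeR), and in the mutant it fell to at most 3 counts in each dehydrated library, so that no fold is given. AT1G69840, 617 bases from the 3′ end of NPF4.6, rose in both (0.93 and 0.85).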

How the data were processed

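RNA from whole seedlings was sequenced in 8 libraries. According to the submitters' processing notes and the paper's methods, the authors trimmed reads with Trim Galore 0.6.7, mapped them to TAIR10 and counted them per gene with featureCounts (Subread 2.0.1). They deposited raw counts on exons of Araport11 genes, without normalization and without regard to strand. Even numbers made up 69.4% to 74% of nonzero counts and the header shows no setting for read pairs, so both mates of a pair were mostly counted and counts overstate the number of molecules. The header's alignment names are the defaults of STAR, while the methods name bowtie2.

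Counts were filtered with filterByExpr (21614 genes kept), scaled with TMM and fitted with edgeR 4.0.16 in R 4.3.3 by the quasi-likelihood test, with 1 mean per group over all 8 libraries. SE is the log2 fold change over the square root of F. Genes named were the 5 transporters, the genes of each list that passed the interaction test, and up to 2 rises and 2 falls per list ranked by log2 fold change in Col-0 among those passing. Genes named beside these, and the neighbours, were chosen after their values were seen. The members and lists were chosen with earlier results of these data known. Some genes are in 2 lists, and 12 listed genes without a symbol in RefSeq are named by locus or by RefSeq's symbol. Sequences and names came from RefSeq (TAIR10.1), and figures were drawn with matplotlib 3.10.9. The fits were tested on simulated data. Alternatives were RLE, upper quartile and library size scaling, DESeq2 1.42.0, other filters and thresholds, the 4 libraries of a comparison, the replicate number as a block, and each library left out in turn.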

Additional observations from a re-analysis of the deposited data

Results flagged for a closer look

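The response to dehydration differed between the genotypes for 2 of the 5 transporters by the interaction test in edgeR. For ABCG40, the response in enap1-1enap2 minus that in Col-0 was −3.48 on the log2 scale (adjusted p = 4.6e-06), with a rise in both Col-0 dehydrated libraries and a fall in both mutant ones relative to their mock groups. For DTX50 it was −1.73 (adjusted p = 5.7e-04), with a rise in both genotypes.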

How the results depend on the processing

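Of the 25 log2 fold changes of the transporters, ABCG40 and DTX50 kept direction and call in the interaction under all settings run. Asking for all 3 thresholds dropped NPF4.6 in Col-0 (0.48) and in enap1-1enap2 (0.22), ABCG40 in enap1-1enap2 (−0.94, leaving 0 transporters lower) and ABCG22 between the genotypes under dehydration (−0.78). The rise of NPF4.6 in enap1-1enap2 was also lost with upper quartile scaling (0.06), library size alone (0.06), DESeq2 (0.21) and no count filter (0.22), and it lay between 0.18 and 0.27 with each library left out. Scaling by upper quartile or library size moved the median of all genes to −0.22 and −0.21 in Col-0 and to −0.17 in the mutant. With each library left out, DTX50 under mock lay between −0.02 and 0.77, with 1 to 2 transporters higher, NPF4.6 between the genotypes under dehydration between −0.08 and 0.01, and the interaction of ABCG22 between 0.04 and 0.59, with 0 to 1 transporters higher. Without scaling factors, levels moved by more than 1 SD for ABCG40 (27.6 CPM) and ABCG22 (14.6 CPM) in enap1-1enap2 Mock, DTX50 in Col-0 Dehydration (93.4 CPM) and NPF4.6 in all groups (37.2 to 45.6 CPM).

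Over all genes, the 3 thresholds left 4699, 5763, 290, 520 and 958 of the 12899, 13966, 1550, 3176 and 3639 genes that passed in the Col-0 response, the mutant response, the genotypes under mock, under dehydration and the interaction. Without a count filter 2389 genes passed under mock. With 1 library left out, as few as 280 passed under mock, 1559 under dehydration and 1801 in the interaction, in fits that assume the lone library varies like the other groups. Replicates with the same number did not deviate together (r between −0.06 and 0.08 for the 6 pairs of groups). These correlations cannot show whether libraries with the same number were grown or handled together. A replicate block changed no call on a transporter (ABCG40 interaction −3.50, DTX50 −1.72). With 2 libraries per group, small differences such as those of NPF4.6 and ABCG25 cannot be resolved.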
